A study of Homo sapiens with 6 samples.

Results

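The genes of 10 secreted chemokines and cytokines that epithelial cells can express were read on arrays of KYSE30 cells, an established human oesophageal squamous carcinoma line. They were CXCL1, CXCL2, CXCL3, CXCL5, CXCL6, CXCL8 (written IL8 in the deposited table), CCL20, IL6, LIF and CSF2, found in the table by gene symbol from a list made with earlier results of these data known. They held 12 of the 34558 array rows and, after rows of a symbol were averaged, made up 10 of 19148 genes. CCL20 and LIF had 2 rows each and the other genes 1. The cultures had been transfected for 48 h with siRNA (20 nmol/ml, the dose printed in the labels) using Lipofectamine. Samples 4, 5 and 6 were labelled as receiving an siRNA against MTA2, which encodes part of NuRD, a complex that remodels and deacetylates chromatin, and samples 1, 2 and 3 as receiving a negative control siRNA. The label field names Cy5 for the even samples 2, 4 and 6 and Cy3 for the odd samples 1, 3 and 5. Each group therefore holds both dyes unequally, and dye cannot be told apart from odd or even sample number. The protocol in the labels nevertheless describes a single-colour kit, so every dye comparison below rests on the label field alone. Each arm rests on a single siRNA duplex, nothing says that the 3 samples of a group were separate cultures, so p-values measure a spread between samples that could be technical alone.

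The duplexes are shown because they define the groups. The capitals mark bases 2 to 8 of each antisense strand, the seed with which an siRNA can also pair with other transcripts, and the final tt of each strand is an overhang.
MTA2 siRNA, sense: ggugggagauuacgucuautt
MTA2 siRNA, antisense: aUAGACGUaaucucccacctt
control siRNA, sense: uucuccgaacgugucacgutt
control siRNA, antisense: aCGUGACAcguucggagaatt

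CXC chemokines that carry a glutamate-leucine-arginine motif before their first cysteines attract neutrophils through the receptors CXCR1 and CXCR2, and CXCL1, CXCL2, CXCL3, CXCL5, CXCL6 and CXCL8 all belong to this class. CCL20 attracts dendritic cells and lymphocytes through CCR6, IL6 and LIF signal through receptors that share the chain IL6ST (gp130), and CSF2 encodes the growth factor GM-CSF. In epithelium these genes are known as targets of interleukin-1, tumour necrosis factor and interleukin-17, which act through NF-kB, and several of their mRNAs carry AU-rich elements that mark them for rapid decay.

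The CXC members lie close together on chromosome 4, and their promoters are shown because the sequence before their starts is shared to very different degrees. Of the 9 members with an entry in the RefSeq promoter table (GRCh38.p14; LIF had none), 7 held the NF-kB-like motif GGANTTTCC, searched on both strands in the 250 bases before the start. The same motif was in 1.45% of the 35116 promoters of that table. It was written down with these sequences known, and a match is a description of the letters and not of binding. The 41-base windows below run 5′ to 3′ along the gene's own strand, with the match in capitals.
CXCL1, chr4:73869299-73869339, plus strand: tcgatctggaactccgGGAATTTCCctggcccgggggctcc
CXCL2, chr4:74099248-74099288, minus strand: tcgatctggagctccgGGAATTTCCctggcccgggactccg
CXCL3, chr4:74038743-74038783, minus strand: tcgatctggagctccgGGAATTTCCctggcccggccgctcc
CXCL5, chr4:73998743-73998783, minus strand: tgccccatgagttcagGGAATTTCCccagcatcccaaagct
CXCL6, chr4:73836573-73836613, plus strand: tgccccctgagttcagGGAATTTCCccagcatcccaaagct
CXCL8, chr4:73740462-73740502, plus strand: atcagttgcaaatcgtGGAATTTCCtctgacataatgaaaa
IL6, chr7:22727112-22727152, plus strand: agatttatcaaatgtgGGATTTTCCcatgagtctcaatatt

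All 6 CXC windows held the same 9 letters on the gene's own strand, and IL6 differed within the match. The first base of the match lay between 72 bases (IL6) and 91 bases (CXCL8) before the start. CXCL5 and CXCL6 were identical at 40 of 41 aligned bases (97.6%) and CXCL1 and CXCL3 at 38 (92.7%), whereas CXCL1 and CXCL8 shared 19 (46.3%). These windows are set beside the array values and were not tested against them. CXCL1, CXCL2 and CXCL3 also have closely related transcripts, and since the sequences of the array features were not used here, rows that bind a paralog cannot be recognised.

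The arrays as a whole set the frame for these values. The targeted gene, MTA2, had no lower reading where its siRNA was labelled: its row read 13.12, 13.18 and 13.52 in samples 4, 5 and 6, against 12.92, 13.13 and 13.004 in the controls, a difference of 0.26 (95% interval -0.16 to 0.67). Directions below therefore refer to samples as labelled. Column medians lay between 10.44 and 10.45, and values ran from -0.83 to 15.996. The lists of cell type markers did not set the squamous label apart by signal. Relative to all genes, the median brightness percentile was 71.0 for the 8 genes of the squamous list, which held KRT5, TP63 and also EPCAM. It was 74.8 for 5 endothelial, 51.8 for 5 fibroblast and 45.9 for 8 leukocyte markers. Of these 26 markers, 0 passed the limma test between the groups and 0 had an unadjusted p under 0.05. In the squamous list the smallest p belonged to EPCAM, PERP and DSG3 (differences of -0.61, -0.53 and 0.20). In the leukocyte list it belonged to CD3E, ITGAM and LYZ (-0.77, 0.50 and -0.55). The endothelial list gave PECAM1, CDH5 and VWF (-0.36, 0.25 and 0.23) and the fibroblast list DCN, PDGFRB and LUM (0.12, 0.12 and 0.19).

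None of the 10 genes passed the test between the groups. Calls were made with limma across all genes at a Benjamini-Hochberg adjusted p of 0.05, and 0 of 10 members were called, where 0% of all 19148 genes were. At an unadjusted p under 0.05 the count was also 0 of 10, beside 3.75% of all genes. Adjusted p ran from 0.943 to 0.996 over the members. In the samples labelled MTA2 siRNA 4 genes had the higher mean and 6 the lower, with a median difference of -0.032 beside 0.029 over all genes. The median size of a difference, sign aside, was 0.098 for the members and 0.17 for all genes. In RNA from a whole culture, fewer producing cells and less RNA per cell cannot be told apart. The samples in this set allow only modest precision: the 95% interval lay within a 2-fold change for 6 of 10 members and for 78.9% of all genes.

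**Figure D1:**
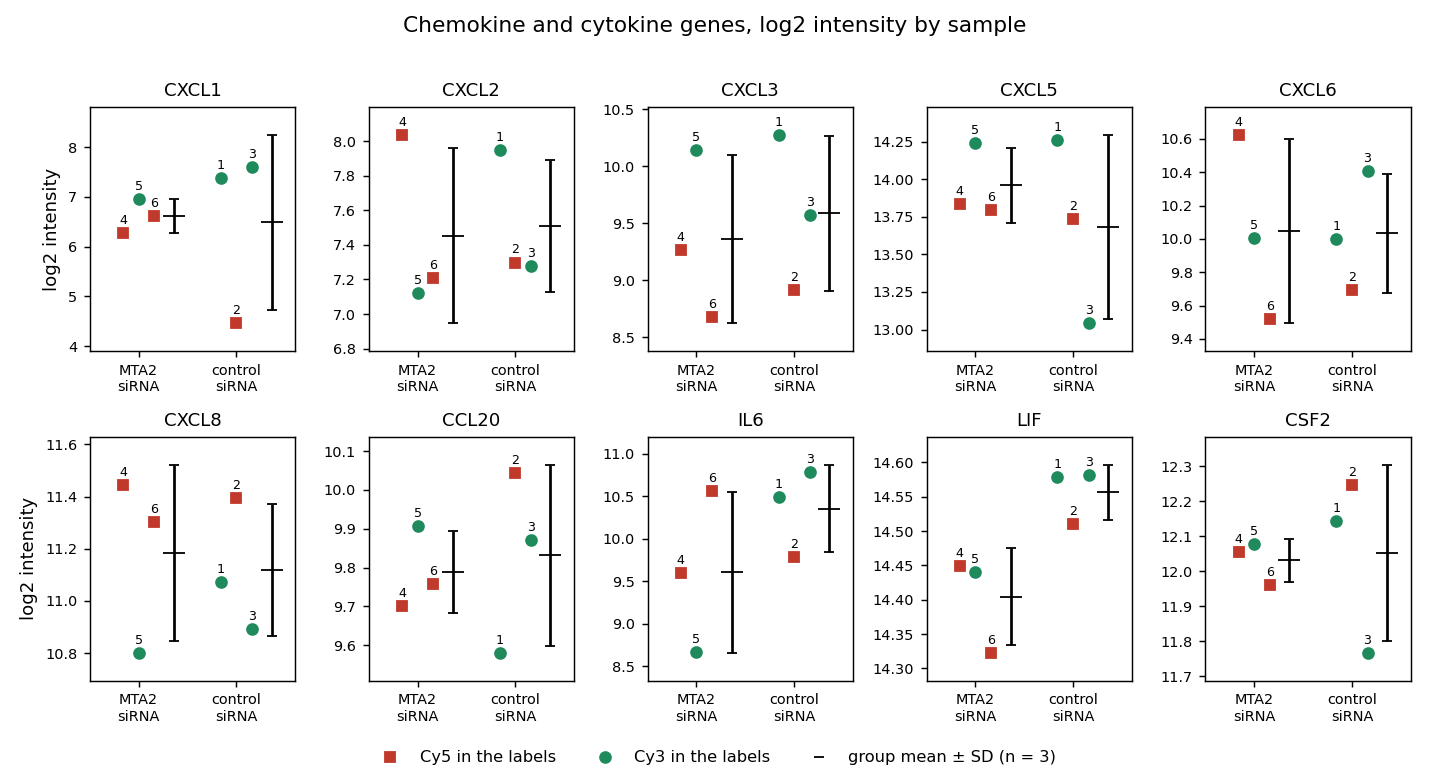
Log2 intensity of each gene by sample, with samples labelled MTA2 siRNA (4 to 6) on the left and control siRNA (1 to 3) on the right of each panel, and the group mean ± SD (n = 3) beside them; squares are Cy5 and circles Cy3, and each panel has its own scale. The groups overlap in every panel except LIF, whose 6 values span only 0.26, while in CXCL1, CXCL3 and CXCL8 the squares and circles separate.

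CXCL1, first isolated as a melanoma growth-stimulating factor, was the most variable of the set. Its single row read 6.28, 6.96 and 6.62 in samples 4, 5 and 6, labelled MTA2 siRNA, against 7.39, 4.46 and 7.61 in control samples 1, 2 and 3. Control sample 2 was by far the lowest and the other controls were the highest, so the samples labelled MTA2 siRNA fell between them. The means were 6.62 ± 0.34 in the samples labelled MTA2 siRNA and 6.49 ± 1.75 in the controls (SD, n = 3 each), which gave a difference of 0.13 (SE 0.79, limma adjusted p = 0.985). Its interval of -1.74 to 2.00 reaches a 4.00-fold higher level and a level 0.299 times control. Without control sample 2 the difference was -0.88, the reverse direction. The row is dim, brighter than only 1.36% of genes, and 88.1% of genes of like brightness varied less within groups.

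CXCL2 and CXCL3, the closest relatives of CXCL1, both had means slightly below control, and neither passed. CXCL2 read 8.03, 7.12 and 7.21 in the samples labelled MTA2 siRNA, against 7.95, 7.30 and 7.28 in the controls. In each group 1 sample stood above a close pair, and the difference was -0.054 (interval -0.78 to 0.68). The CXCL2 row is also dim, brighter than only 3.47% of genes. CXCL3 read 9.26, 10.15 and 8.68 in the samples labelled MTA2 siRNA, against 10.27, 8.91 and 9.57 in the controls. Its groups overlapped over most of their range, with a difference of -0.22 (SE 0.46, limma adjusted p = 0.959) that became 0.14 with dye as a block. Of genes of like brightness, 97.4% had a smaller SD within groups than CXCL3, whose SD was 0.71.

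CXCL5 and CXCL6, close relatives of each other, both showed wide overlap. CXCL5, also called ENA-78, read 13.84, 14.24 and 13.79 in the samples labelled MTA2 siRNA, against 14.26, 13.74 and 13.04 in the controls. Control sample 3 alone lay below all the others. The difference of 0.28 (SE 0.32, limma adjusted p = 0.943) was -0.042 without that sample. CXCL6 read 10.62, 10.00 and 9.52 in the samples labelled MTA2 siRNA, against 10.00, 9.70 and 10.41 in the controls. The highest and the lowest value both belonged to samples labelled MTA2 siRNA, and the group means were 10.05 ± 0.55 in those samples and 10.03 ± 0.36 in the controls (SD, n = 3 each).

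CXCL8, the interleukin-8 gene and the best known neutrophil attractant of the class, was read by a row of moderate signal. Its values were 11.45, 10.80 and 11.30 in the samples labelled MTA2 siRNA, against 11.07, 11.39 and 10.89 in the controls. The difference was 0.065, with an interval of -0.48 to 0.61, which corresponds to between 0.717 and 1.53 times the control level. Fitted with dye as a block, CXCL8 differed by -0.099 and the interval narrowed to -0.46 to 0.26.

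The chromosome 4 cluster holds 9 protein-coding genes from CXCL8 to CXCL2 in the RefSeq order, 6 of them members and 3 not. PF4, which encodes platelet factor 4, lies between CXCL1 and CXCL5 and read 10.27, 10.22 and 10.27 in the samples labelled MTA2 siRNA, against 9.58, 9.98 and 9.55 in the controls. All 3 samples labelled MTA2 siRNA lay above all 3 controls, with a difference of 0.55 (SE 0.17, limma adjusted p = 0.943), which did not pass. Groups that do not overlap, in either direction, occurred in 9.43% of all genes. PF4V1, the paralog of PF4, differed by -0.57 (interval -1.51 to 0.36) and PPBP, which encodes pro-platelet basic protein, by -0.81 (interval -2.28 to 0.65). PPBP was dim, with values from 5.01 to 7.59. The neighbours of the members held values in both directions, as did the members within the cluster, from -0.22 for CXCL3 to 0.28 for CXCL5.

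CCL20, the ligand of CCR6, was read by 2 rows that differed in opposite directions. The row for NM_004591 read 9.31, 9.65 and 9.78 in the samples labelled MTA2 siRNA, against 9.71, 9.98 and 10.34 in the controls, a difference of -0.43 (interval -0.99 to 0.13). The row for NM_001130046 read 10.09, 10.16 and 9.74 in the samples labelled MTA2 siRNA, against 9.45, 10.11 and 9.40 in the controls, a difference of 0.34 (interval -0.26 to 0.94). Both pairs of groups overlapped. The mean of the rows differed by only -0.042 (SE 0.18, limma adjusted p = 0.981), although the difference of the first row minus that of the second was -0.77. Among the 3837 genes with exactly 2 rows, the median gap was 0.25, and rows of opposite sign occurred in 41.6%.

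**Figure D2:**
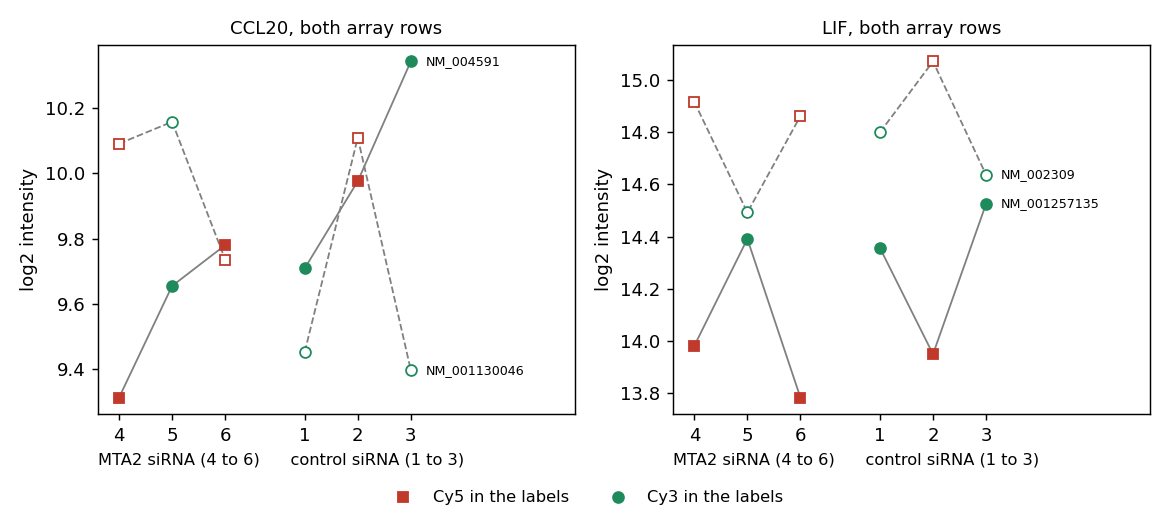
Log2 intensity of both array rows of CCL20 (left) and LIF (right) in samples 4, 5 and 6, labelled MTA2 siRNA, and then control samples 1, 2 and 3; filled symbols with solid lines are the first row, open symbols with dashed lines the second, squares Cy5 and circles Cy3. The lines only join the values of a row: in LIF the first row is lower and the second higher in every Cy5 sample than in every Cy3 sample.

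IL6, the main inducer of the acute phase response, showed the widest group difference of the 10 genes, which the test did not separate from the sample spread. Its row read 9.60, 8.67 and 10.56 in the samples labelled MTA2 siRNA, against 10.49, 9.78 and 10.79 in the controls. Sample 5 was the lowest of all, but sample 6 lay above 2 of the 3 controls. The means were 9.61 ± 0.95 in the samples labelled MTA2 siRNA and 10.35 ± 0.51 in the controls (SD, n = 3 each). The difference was -0.75 (SE 0.49, interval -1.91 to 0.41, limma adjusted p = 0.943), or 0.596 times control, and an exact permutation test gave a two-sided p of 0.3. It was -0.28 without sample 5 and -1.22 without sample 6. Of genes of like brightness, 98.3% varied less within groups.

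LIF, leukaemia inhibitory factor, was the single member whose groups did not overlap. The mean of its rows read 14.45, 14.44 and 14.32 in the samples labelled MTA2 siRNA, against 14.58, 14.51 and 14.58 in the controls. The gap between the groups was 0.061 and the difference -0.15 (SE 0.14, interval -0.49 to 0.19, limma adjusted p = 0.943), about 0.900 times control. The exact permutation p was 0.1, two-sided, the smallest that 3 against 3 samples allow. Groups that do not overlap occurred in 1 of 10 members and in 9.43% of all genes. In neither row alone did the groups separate. The row for NM_001257135 differed by -0.22 and that for NM_002309 by -0.079, and 0 of the 12 member rows were called in the fit over rows, where 0% of the 34558 rows were; at an unadjusted p under 0.05 limma gave 0 of the 12 and 1268 of all rows. The mean was steadier than its rows, with an SD within groups of 0.057 that only 1.88% of genes of like brightness undercut.

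CSF2, which encodes GM-CSF, the growth factor of granulocytes and macrophages, spanned only 0.48 over the 6 samples. It read 12.06, 12.08 and 11.96 in the samples labelled MTA2 siRNA, against 12.14, 12.24 and 11.77 in the controls. The samples labelled MTA2 siRNA lay inside the range of the controls. The difference was -0.021, with an interval of -0.44 to 0.40, which corresponds to between 0.736 and 1.32 times the control level.

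**Figure D3:**
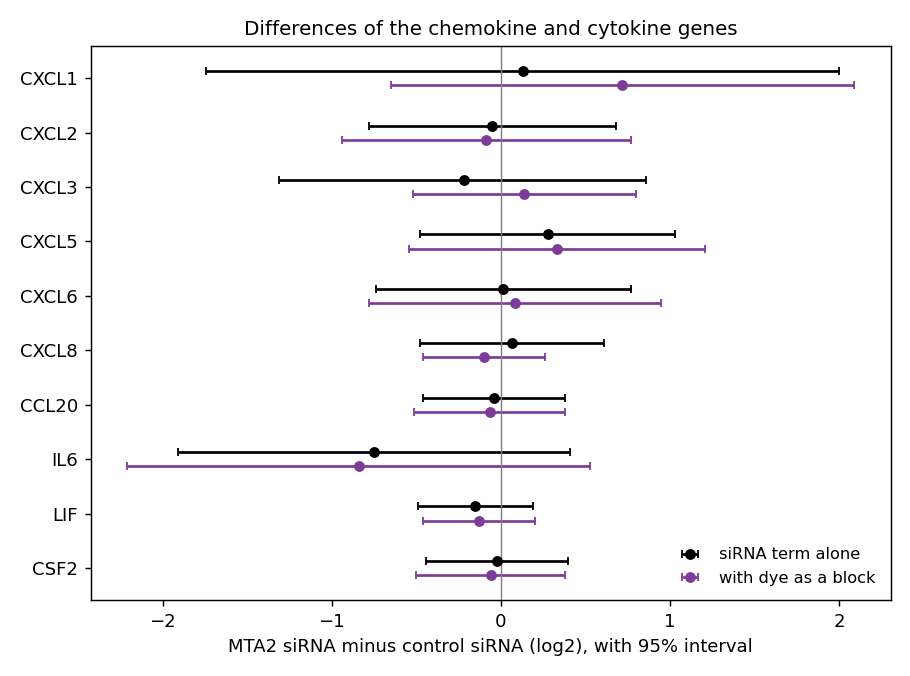
Difference of each gene between samples labelled MTA2 siRNA and control siRNA on the log2 scale (horizontal axis), with limma's 95% interval, from the fit with siRNA alone (black) and with dye as a block (purple). All 20 intervals include 0; in either fit the widest are those of CXCL1 (-1.74 to 2.00 with siRNA alone, -0.65 to 2.09 with the block) and IL6 (-1.91 to 0.41 with siRNA alone, -2.21 to 0.53 with the block), and the signs of CXCL3 and CXCL8 turn with the block.

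Some of these genes separated by dye. In a fit with both terms, CXCL1 and CXCL3 read lower and CXCL8 higher in Cy5 than in Cy3, with no overlap between the dyes. Non-overlap by dye occurred in 3 of 10 members, beside 27.6% of all genes, so for gene means the share is near the background. These counts use the mean of the rows of a gene and leave out the separation of each LIF row, given below. An unadjusted p under 0.05 for dye was reached by the same 3 of 10 and by 17.9% of genes, and 0 of 10 passed the adjusted threshold, which 0.345% of all genes passed. CXCL1 differed by -1.77 (SE 0.55, limma adjusted p = 0.21), from 4.46, 6.28 and 6.62 in the Cy5 samples 2, 4 and 6 against 7.39, 7.61 and 6.96 in the Cy3 samples 1, 3 and 5. CXCL3 differed by -1.09 (SE 0.27, limma adjusted p = 0.164) and CXCL8 by 0.49 (SE 0.14, limma adjusted p = 0.196). The CXCL8 means were 11.38 ± 0.072 in Cy5 and 10.92 ± 0.14 in Cy3 (SD, n = 3 each).

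The rows of LIF went opposite ways by dye. The row for NM_001257135 averaged 13.91 ± 0.11 in Cy5 and 14.42 ± 0.089 in Cy3, and that for NM_002309 averaged 14.95 ± 0.11 in Cy5 and 14.64 ± 0.15 in Cy3 (SD, n = 3 each). Neither passed the adjusted threshold, with limma adjusted p = 0.239 for the first and 0.304 for the second. The first row minus the second was -0.93, -1.08 and -1.12 in the Cy5 samples 4, 6 and 2 and -0.10, -0.44 and -0.11 in the Cy3 samples 5, 1 and 3. These 2 sets did not overlap (exact permutation p = 0.1, two-sided, the smallest possible), and the dye difference of the LIF row mean was only -0.062. For CCL20, the first row minus the second averaged -0.29 in Cy5 and 0.23 in Cy3, a difference of -0.52 (exact permutation p = 0.4, two-sided). How often the rows of other genes part by dye in this way was not computed. Whether dye accounts for the narrow spread of the LIF mean was not tested.

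**Figure D4:**
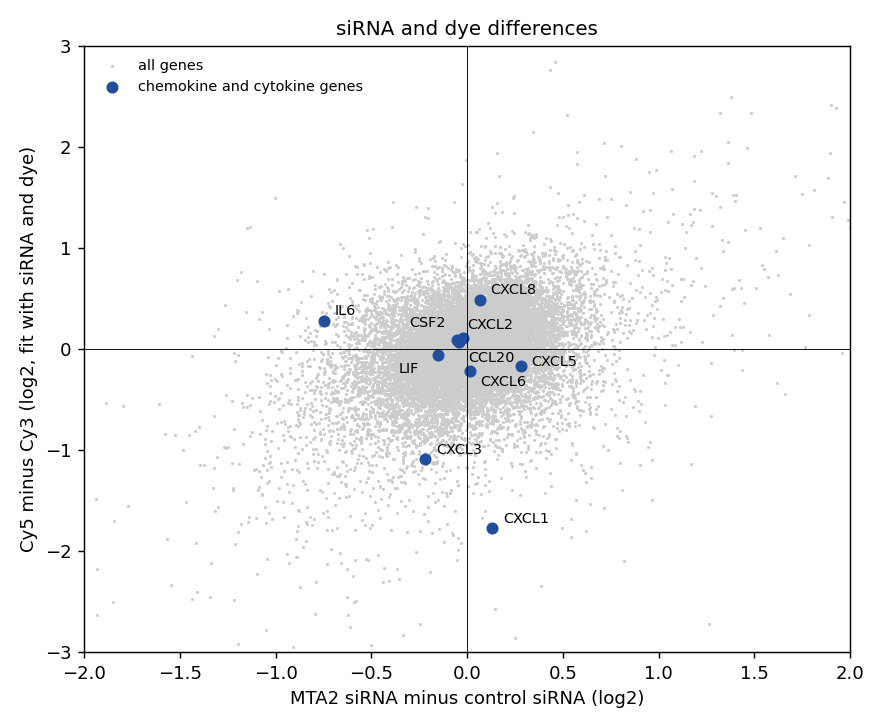
For every gene (grey) and the 10 chemokine and cytokine genes (blue), the difference between samples labelled MTA2 siRNA and control siRNA in the fit with siRNA alone (horizontal axis, log2) against the Cy5 minus Cy3 difference in the fit with both terms (vertical axis, log2); 85 genes lie outside the axes. CXCL1 and CXCL3 lie low at -1.77 and -1.09 on the dye axis, and IL6 lies left at -0.75 on the siRNA axis. The other genes lie nearer to 0 than CXCL3 on the dye axis and nearer to 0 than IL6 on the siRNA axis.

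Within a dye the siRNA differences of several genes opposed each other. CXCL1 differed by 1.98 within Cy5 and -0.54 within Cy3, and IL6 by 0.29 within Cy5 and -1.97 within Cy3. In each dye 1 arm has a single sample, control sample 2 in Cy5 and sample 5, labelled MTA2 siRNA, in Cy3. Opposite signs within Cy5 and Cy3 occurred in 6 of 10 members and in 45.3% of all genes. An interaction of siRNA with dye, added after the values were seen, gave 0 calls among the members and in 0% of all genes. At an unadjusted p under 0.05 it held for CXCL1 and IL6, 2 of 10, beside 4.17% of all genes, with limma adjusted p = 0.799 for CXCL1 and 1.00 for IL6. LIF kept its size, at -0.12 within Cy5 and -0.14 within Cy3. Since its groups do not overlap, the sign could not turn within a dye, so these values add no support.

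Genes around these cytokines likewise gave no call. Over 6 lists with 110 measured genes, 0 passed the adjusted threshold and 2, JUN and PF4, had an unadjusted p under 0.05 (1.82%, beside 3.75% of all genes). Their median difference was 0.035, with 59 genes higher and 51 lower. The groups did not overlap in 7 of the 110 (6.36%), beside 9.43% of all genes. PF4, IL6R, CSF2RB, NFKB2 and JAK1 were among these 7. From each list the 3 genes with the smallest p are named, and none of the values that follow passed.

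Among 9 receptors, 4 were higher and 5 lower, with a median of -0.10. IL6R, the ligand-binding chain for interleukin-6, read 8.95, 8.95 and 7.92 in the samples labelled MTA2 siRNA, against 8.97, 9.45 and 9.18 in the controls, a difference of -0.60 over 3 rows. The groups did not overlap by a narrow gap, and without sample 6 the difference was smaller, at -0.26. CXCR1, a receptor for CXCL8 and CXCL6, differed by -0.64 and CSF2RB, the shared beta chain of the GM-CSF receptor, by 0.20.

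Among 22 upstream cytokines, receptors and adaptors, 12 were higher and 10 lower, with a median of 0.057. TLR3, a sensor of double-stranded RNA, differed by -0.42 (SE 0.23). TNFRSF1A, the main tumour necrosis factor receptor, differed by 0.29 and its adaptor TRAF2 by 0.27. Among 16 NF-kB subunits, kinases and inhibitors, 10 were higher and 6 lower, with a median of 0.063. NFKB2, which encodes the precursor p100, differed by -0.27, the mean of 3 rows that differed by -0.38, 0.092 and -0.52. NFKBIA differed by 0.29 and the ubiquitin-editing enzyme TNFAIP3 by -0.20. The inhibitor NFKBIA, itself an NF-kB target, read 10.95, 10.55 and 10.69 in the samples labelled MTA2 siRNA, against 10.59, 10.46 and 10.27 in the controls, and these ranges overlapped.

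Among 18 other transcription factors and regulators of AU-rich mRNAs, 10 were higher and 8 lower, with a median of 0.043. JUN, a subunit of AP-1, read 9.18, 8.54 and 9.72 in the samples labelled MTA2 siRNA, against 8.06, 8.75 and 8.28 in the controls, a difference of 0.79 (SE 0.33, limma adjusted p = 0.943). JUN also read 0.75 higher in Cy5 than in Cy3, and its siRNA difference was 0.54 with dye as a block. The immediate early factor EGR1 differed by 0.63, with 0.69 between the dyes, and ZC3H12A, a ribonuclease that degrades IL6 mRNA, by 0.35. Among 12 genes of signalling downstream, 6 were higher and 6 lower, with JAK1, the kinase bound to IL6ST, at -0.43, PIAS3, an inhibitor of STAT3, at -0.59 and STAT5B at 0.25. Among 33 other chemokines and cytokines, 17 were higher and 16 lower, with a median of 0.0062. Besides PF4 and PF4V1, given with the cluster, the alarmin IL33 differed by 0.86 (SE 0.52) over 3 rows, and by 0.25 without control sample 1, which read 3.98. IL33 was dim, with group means of 6.04 in the samples labelled MTA2 siRNA and 5.19 in the controls, both below those of CXCL1.

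**Figure D5:**
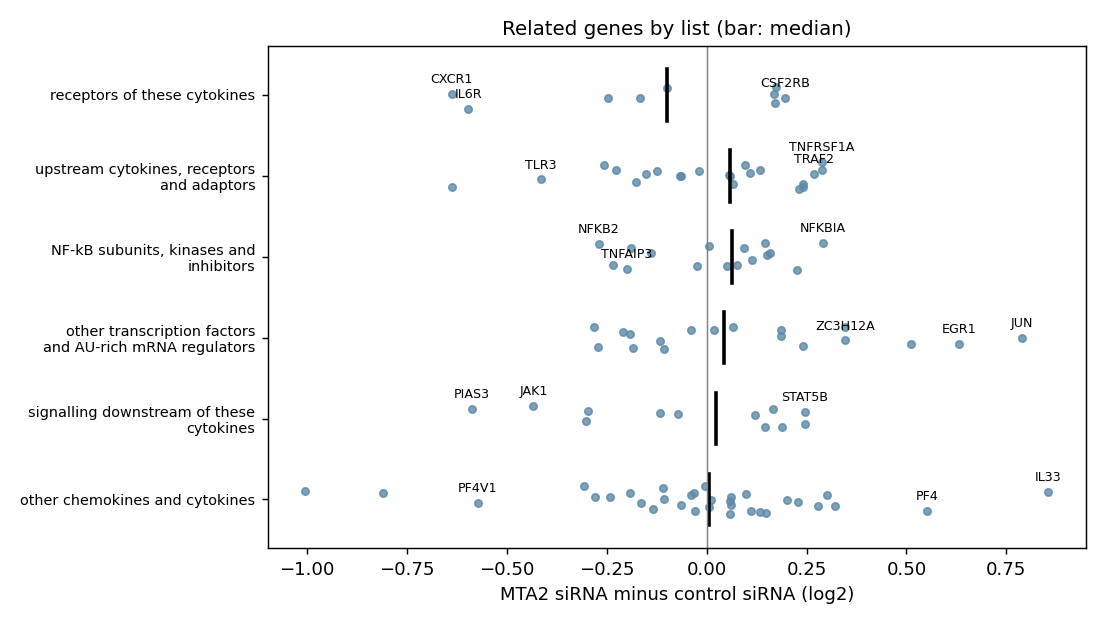
Difference between samples labelled MTA2 siRNA and control siRNA (log2, horizontal axis) for 110 related genes in 6 lists; each point is a gene, the vertical bar is the list's median, and the 3 genes with the smallest p of each list are named. The medians lie between -0.10 and 0.063, and single genes scatter to both sides in every list.

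Of the 9574 genes above the median level, those that were no members were searched for likeness to the mean profile of the members. With so many genes and only 6 samples, the search alone can give a high Pearson's r. The genes most like that profile were SYNE3, OC90, TRIM43B, PAIP1 and ALDH3B2, with r between 0.960 and 0.976, taken as a description only. That profile, the mean of the members after each was centred on its own mean, was 0.045, -0.047 and -0.11 in samples 4, 5 and 6, labelled MTA2 siRNA, against 0.29, -0.27 and 0.097 in control samples 1, 2 and 3. It ran from the highest to the lowest value within the controls. It leans on CXCL1, and the samples share dyes.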

How the data were processed

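The authors deposited log2 normalised intensities for 34558 array rows in 6 samples, and the value table of the series matrix held the same values (largest difference 0). Per the labels' protocols, double-stranded cDNA was labelled with a NimbleGen single-colour kit and scanned on an Axon GenePix instrument. How background and normalisation were handled, and on which build, was not given in the sources used here. Arrays have no read depth; the number of samples limits precision.

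Rows were named through RefSeq (GRCh38.p14, by accession for 33809 rows) and averaged per symbol on the log2 scale, without filter. All 19148 genes were fitted with limma 3.58.1 in R 4.3.3 (lmFit, eBayes, two-sided). Differences are samples labelled MTA2 siRNA minus control siRNA; intervals are 95%. Single genes were also tested by exact permutation over samples. Brightness percentiles rank mean signal over genes, which is not RNA amount. The members, the lists and the motif were chosen with earlier results of these data known. Named beside the members are MTA2, the 3 genes with the smallest p of each related or marker list, and the 5 genes of most similar profile above the median level. Alternatives covered dye, normalisation, filter, rows, variance, weights, threshold and samples. Plots used matplotlib 3.10.9.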

Additional observations from a re-analysis of the deposited data

How the results depend on the processing

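The alternatives called 0 members between the groups (lowest adjusted p of a member 0.242), which says little about stability, since 16 refits called at most 18 of all genes: 18 without control sample 2 and sample 5, 4 within Cy3, 3 without control sample 2, 1 without sample 6 and 0 in the others. Within a dye 1 arm has a single sample, assumed to vary like the other arm. The number of related genes called became 2, and of members called for dye 3, at an unadjusted p of 0.05, a threshold with no correction for multiple testing. The median difference of the members was -0.032 in the main fit and ran from -0.16 to 0.068 over the alternatives, so its sign was not stable. It was 0.022 for members above the median level, 0.033 without control sample 1, 0.042 without sample 6 and 0.068 within Cy5. In the other alternatives it stayed below 0, with -0.16 without control sample 2 and within Cy3. The median level of the members had an SD of 0.15 between samples, which is not a spread of the difference. No paired analysis was made, because the labels name no pairs and the groups share no sample numbers. Whether samples were handled in pairs is not known. The fit without control sample 2 and sample 5 and the interaction with dye were chosen after seeing the data.

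Signs of single members, none of them called, turned in 20 of 94 values from alternatives other than single samples left out. The 94 include fits that leave a difference as it was, such as the refit of the variance and the filter on dim genes. No sign could turn there. With single samples left out, 18 of 60 values turned, and 8 of 10 members turned at least once. The cause was not tested. With dye as a block CXCL3 was 0.14 and CXCL8 -0.099. With array weights CXCL1 was -0.42 and CCL20 0.039, and its brightest row gave CCL20 0.34. Within Cy5, CXCL2 was 0.32, CXCL3 0.057, CXCL8 -0.019 and IL6 0.29. Within Cy3, CXCL1 was -0.54, CXCL3 0.22, CXCL6 -0.20, CXCL8 -0.18, CCL20 0.18 and CSF2 0.12. Without both control sample 2 and sample 5, CXCL1 was -1.05, CXCL2 0.0085, CXCL6 -0.13, CCL20 0.0046 and CSF2 0.053. With each sample left out in turn the range was -0.88 to 0.69 for CXCL1, -0.34 to 0.17 for CXCL2, -0.62 to 0.12 for CXCL3, -0.042 to 0.57 for CXCL5, -0.27 to 0.28 for CXCL6, -0.066 to 0.26 for CXCL8, -0.17 to 0.063 for CCL20, -0.16 to 0.075 for CSF2, -1.22 to -0.28 for IL6 and -0.17 to -0.11 for LIF. Genes below the median level (CXCL1, CXCL2, CXCL3, CXCL6, CCL20 and IL6) have no value under the filter on dim genes.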
